A study of Mus musculus with 4 samples.

Results

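The 10 genes described here encode proteins that make the blood-brain barrier, and they were taken as the rows of the count tables whose gene symbol is on a fixed list of members, out of 32286 features. All 10 symbols, Slc2a1, Cldn5, Slco1a4, Abcb1a, Mfsd2a, Abcc4, Abcg2, Tjp1, Ocln and Slc7a5, were found, each on 1 row. Their UMI counts (unique molecular identifiers, each standing for 1 captured RNA molecule) were read in single nuclei of snap-frozen hemispheres, taken from C57BL/6 mice on postnatal day 14. The series has 4 libraries. The 2 libraries labelled WT carried Slc17a6-Cre with wild-type Ago2 on both alleles (Ago2 wt/wt), and the 2 labelled KO carried the same Cre and 2 floxed Ago2 alleles (Ago2 flox/flox), so the Cre driver is shared by all. Slc17a6-Cre recombines in neurons that express VGLUT2, a vesicular glutamate transporter. The labels name no animals, so p-values measure only the spread between libraries, which may be technical.

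The blood-brain barrier is formed by the endothelial cells of brain capillaries. Tight junctions seal the clefts between these cells, carriers bring in glucose, amino acids and lipids, efflux pumps return drugs and other foreign molecules to the blood, and vesicle traffic across the cell is kept low. Wnt ligands from neural cells acting through beta-catenin in the endothelium induce this state during development, and pericytes and astrocyte endfeet help to keep it. Nuclei carry mostly unspliced and newly made RNA, so a level measured here is not a level of protein or of cytoplasmic mRNA.

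Upstream sequence was available for 9 of the 10 members, in 13 windows, because Abcg2, Abcc4 and Ocln have more than 1 annotated start (RefSeq, GRCm38.p6; Slc7a5 was not matched). The 3 windows below are the 250 bases before the start of the member with the largest endothelial difference, Slc2a1, and of the members whose endothelial estimate was negative, Mfsd2a and Cldn5. Capitals mark every match, on either strand, to 3 short motifs: the core of the hypoxia-inducible factor (HIF) site (ACGTG or GCGTG), the LEF and TCF core through which Wnt signals act (CTTTGA or CTTTGT), and an ETS core (CCGGAA or CAGGAA).
Slc2a1, chr4:119108495-119108744, plus strand: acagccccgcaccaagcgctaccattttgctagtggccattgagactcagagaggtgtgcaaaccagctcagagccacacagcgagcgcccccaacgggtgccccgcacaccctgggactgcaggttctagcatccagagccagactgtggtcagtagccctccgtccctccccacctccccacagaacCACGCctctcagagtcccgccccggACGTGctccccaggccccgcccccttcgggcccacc
Mfsd2a, chr4:122961189-122961438, minus strand: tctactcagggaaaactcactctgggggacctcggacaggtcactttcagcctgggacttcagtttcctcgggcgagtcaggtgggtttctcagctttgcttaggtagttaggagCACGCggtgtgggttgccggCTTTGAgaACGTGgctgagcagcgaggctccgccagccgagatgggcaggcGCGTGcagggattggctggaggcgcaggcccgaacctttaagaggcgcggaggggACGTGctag
Cldn5, chr16:18776597-18776846, plus strand: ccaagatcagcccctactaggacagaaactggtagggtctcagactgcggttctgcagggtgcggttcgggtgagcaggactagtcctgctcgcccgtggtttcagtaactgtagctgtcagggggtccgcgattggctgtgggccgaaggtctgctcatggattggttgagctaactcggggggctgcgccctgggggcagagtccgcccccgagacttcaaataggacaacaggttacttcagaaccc

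The Slc2a1 window held 2 HIF core matches, beginning 61 and 36 bases before the start. The Mfsd2a window held 4, beginning 135, 107, 64 and 9 bases before it, and 1 LEF and TCF core match at 115 bases. No capital stands in the Cldn5 window, so these letters are not in that window. Over the 13 windows, 5 held a HIF core, 3 a LEF and TCF core and 3 an ETS core. Among all 32851 upstream windows of the same length, 38.6% held a HIF core, 27.6% a LEF and TCF core and 35.1% an ETS core. The windows were 39.2% G and C for Slco1a4 and 40.4% for Abcb1a, with 0 CpG in either, while the first Abcc4 window was 72.0% with 35 CpG, so the windows differ widely in base composition. In Abcb1a, with its window at chr5:8566841-8567090 before the RefSeq start, 3 LEF and TCF matches began 180, 153 and 58 bases before that start. The GENCODE M21 start of this gene, chr5:8660077, lies far downstream of the window. A match is a run of letters, and binding was not measured.

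The libraries held 4066 and 6752 barcodes with 13107920 and 29317266 UMIs (WT replicates 1 and 2), and 3512 and 3472 barcodes with 10845009 and 11439733 UMIs (KO replicates 1 and 2). After barcodes with 5% or more mitochondrial UMIs and called doublets were removed, 15437 nuclei remained. Pairs of libraries shared 3 to 10 barcodes. Ago2 itself was not lower under the KO label: in glutamatergic nuclei it stood at 75.0 and 80.1 counts per 1000000 UMIs (CPM) in WT and 110 and 105 in KO (log2 difference 0.42, SE 0.17, edgeR adjusted p 0.862). The sources used here do not give the exons lost from the floxed allele, so reads at the 3′ end of Ago2 are no check of the label. WT and KO in what follows are the labels. KO replicate 1 had the fewest endothelial nuclei (31) and mural nuclei (5).

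The endothelial class was a single cluster of 174 nuclei, 44 and 56 in WT and 31 and 43 in KO. It was led by Flt1, Adgrl4, Mecom and Zfp366, and all 14 endothelial markers, none of which is a member, were detected in it. The members were also kept out of the genes used for clustering. Its class totals were 101050 and 235935 UMIs in WT and 99441 and 120572 in KO. Summed markers of mural cells in these nuclei, 11 of 12 detected, were 901 and 1670 CPM in WT and 50.3 and 581 CPM in KO, and Myh11 was at 0. Summed endothelial markers were 9748 and 7854 CPM in WT and 8699 and 13643 in KO, highest in KO replicate 2. Summed neuronal and glial markers were each at most 1277 CPM in every library. Some of these sums did not overlap between the groups: oligodendrocyte markers were at 1277 and 759 CPM in WT and 342 and 481 in KO, astrocyte markers at 792 and 869 against 513 and 489, and GABAergic markers at 356 and 377 against 744 and 572. Granule neuron markers, at 1148 and 721 CPM in WT and 1277 and 1244 in KO, did not overlap either. Blood markers were at 89.1 and 348 CPM in WT and 915 and 357 in KO, with 4 of the 9 at 0, Ptprc among them. Mural markers were lowest and blood markers highest in KO replicate 1, and the part of any of these in the differences below was not tested.

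All 10 members had their highest level in endothelial nuclei among 13 named classes. Pooled over libraries, the endothelial level exceeded that in all other kept nuclei 121-fold for Slco1a4, 70.9-fold for Abcb1a, 41.0-fold for Slc7a5, 24.9-fold for Slc2a1 and 21.2-fold for Abcc4. The ratio was 17.3 for Abcg2, 16.4 for Cldn5, 15.5 for both Mfsd2a and Ocln, and 2.85 for Tjp1. The order is not firm, because libraries differed: Slc2a1 ran from 7.16 in WT replicate 1 to 53.0 in KO replicate 2, and Mfsd2a from 2.59 to 28.1. With no mitochondrial maximum Slco1a4 (40.1) and Abcb1a (39.7) were nearly level, and Cldn5 (25.7) was above Slc2a1 (19.5). These ratios compare a gene with itself, and no level is compared between genes here. Endothelial nuclei nevertheless held a minority of most members' UMIs under the 5% maximum: 54.5% for Slco1a4 and 41.3% for Abcb1a, but 14% for Cldn5 and 2.75% for Tjp1. With no maximum the shares were 53.2% for Slco1a4, 53.0% for Abcb1a, 49.0% for Slc7a5, 42.1% for Cldn5 and 7.87% for Tjp1.

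**Figure D1:**
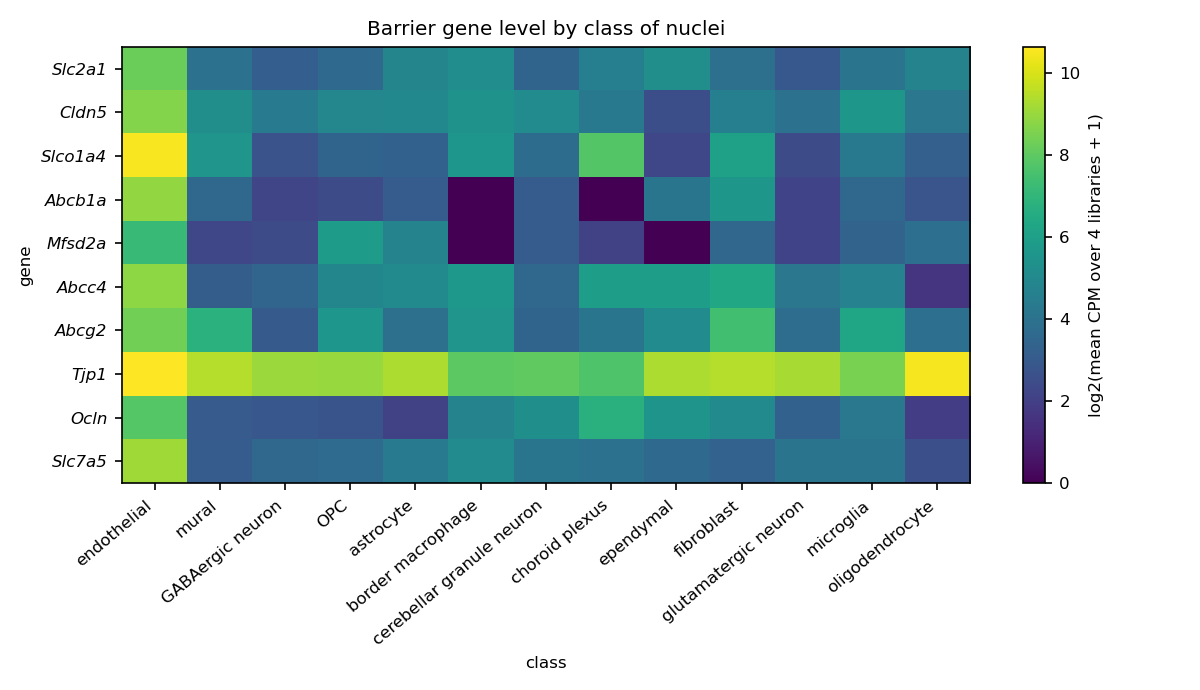
Colour gives log2 of the mean CPM over 4 libraries plus 1, for the 10 barrier genes (rows) in 13 classes of nuclei (columns, with classes named by markers). The endothelial column is the highest in every row, and Tjp1 is high in every class.

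Of the tight junction members, Cldn5 (chr16:18776847-18778262, a gene of 1 exon) encodes claudin-5, the main sealing claudin of brain capillaries. Its endothelial level was 401 ± 154 CPM (SD over 4 libraries), and the highest mean in another named class was 47.8 CPM, in microglia. Levels outside the endothelium spread more than their means differed: microglia ranged from 0 to 160 CPM and granule neurons from 4.56 to 75.3 CPM, so the order of the other classes is not resolved. Of the unnamed clusters, 337 shallow nuclei held 115 Cldn5 UMIs, or 288 CPM beside a pooled endothelial 397 CPM, and 703 others held 88, or 108 CPM. Ocln (chr13:100496507-100552718) encodes occludin, a membrane protein of the junction strand. It stood at 224 ± 55 CPM in endothelial nuclei and 105 ± 27.9 CPM in choroid plexus, an epithelium with tight junctions of its own, and the lowest endothelial library (170 CPM) lay above the highest choroid plexus library (125 CPM). Ependymal nuclei had 43.7 CPM from 11 UMIs, none of them in WT, and cerebellar granule neurons 38.0 ± 3.03 CPM from 354 UMIs, so the order of these last classes is not resolved. Tjp1 (chr7:65296165-65527781) encodes ZO-1, the scaffold that ties junction proteins to actin, in many cell types. Its endothelial level of 1580.5 ± 356 CPM overlapped that of oligodendrocytes, 1420 ± 144 CPM, and the lowest of the 13 classes, choroid plexus, still had 206 CPM.

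Of the carriers, Slc2a1 (chr4:119108711-119137983) encodes GLUT1, which carries glucose across the barrier. It stood at 305 ± 174 CPM in endothelial nuclei, and among the well-filled classes astrocytes followed with 27.5 ± 5.75 CPM and oligodendrocytes with 26 ± 16.1 CPM, which do not differ beyond their spread. Slc7a5 (chr8:121881150-121907694) encodes LAT1, the carrier of large neutral amino acids. It was at 551 ± 171 CPM in endothelial nuclei and at or below 33.9 CPM elsewhere. Mfsd2a (chr4:122946850-122961188) encodes a lysophospholipid carrier that brings docosahexaenoic acid into brain and restrains vesicle traffic. It had the least separation of the carriers: 141 ± 84.3 CPM in endothelial nuclei, 56.0 ± 9.66 CPM in oligodendrocyte precursors (OPC) and 26.1 ± 5.99 CPM in astrocytes. The lowest endothelial library, 20.1 CPM, lay inside the astrocyte range of 17.2 to 30.1 CPM.

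Of the efflux pumps and the organic anion carrier, Abcb1a (chr5:8660077-8748575) encodes P-glycoprotein, which pumps out many drugs. Its level was 473 ± 122 CPM in endothelial nuclei and 48.6 ± 21.6 CPM in fibroblasts, the next class. Abcg2 (chr6:58584523-58695676) encodes the breast cancer resistance protein, a second drug pump. It was less restricted, with 329 ± 96.4 CPM in endothelial nuclei, 171 ± 60.8 in fibroblasts, 109 ± 20.9 in mural nuclei and 74.2 ± 26 in microglia. Its highest fibroblast library (257 CPM) stood level with its lowest endothelial library (257 CPM). The fibroblast class joined 2 clusters, and in the smaller, of 86 nuclei, pooled Abcg2 was at 386 CPM, above the pooled endothelial 318, while the larger, of 314 nuclei, had 107 CPM. Abcb1a (174 against 9.81 CPM) and Abcc4 (215 against 34.8 CPM) were also higher in the smaller cluster. Abcc4 (chr14:118482692-118706219) encodes MRP4, an exporter of organic anions and cyclic nucleotides, and was at 449 ± 167 CPM in endothelial nuclei and 81.0 ± 30.2 CPM in fibroblasts. Slco1a4 (chr6:141805440-141856199) encodes OATP1A4, which moves organic anions and bile acids. It was at 1453 ± 580 CPM in endothelial nuclei and 221 ± 37.2 CPM in choroid plexus, and the ranges of these classes did not overlap.

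To compare single nuclei at equal depth, each nucleus was thinned to 1000 UMIs. At that depth Slco1a4 had a UMI in 53.6% of 153 endothelial nuclei (95% exact binomial interval 45.4% to 61.7%; intervals cover counting error only), with 21 shallower nuclei left out. Unthinned, the share was 66.1% of 174. Microglia, used as a class that should lack the transporter, had 1.69% of 296 nuclei (71 left out; 3.54% of 367 unthinned) and granule neurons 1.20% of 3999 (123 left out; 2.43% of 4122 unthinned). Median depths before thinning were 2052, 1400 and 2064 UMIs. The other shares in thinned endothelial nuclei were 25.5% for Slc2a1, 30.7% for Cldn5, 35.3% for Abcb1a, 13.7% for Mfsd2a, 37.9% for Abcc4, 29.4% for Abcg2, 69.9% for Tjp1, 20.9% for Ocln and 43.1% for Slc7a5. In microglia they ran from 0.676% for Abcb1a and Mfsd2a to 9.80% for Abcg2 and 28.4% for Tjp1. Cldn5 had a UMI in 4.39% of thinned microglia and 3.43% of thinned granule neurons, but the libraries differed: 17.3%, 3.15%, 0% and 0% in microglia and 7.98%, 3.29%, 0.25% and 2.58% in granule neurons (WT replicates 1 and 2, then KO replicates 1 and 2). WT replicate 1 was highest in both. The 0 of 61 and 0 of 56 microglia allow shares of up to 4.92% and 5.36%. A thinned endothelial nucleus held a UMI of 3.06 and 3.2 members on average in the WT libraries and of 3.25 and 4.89 in the KO libraries. KO replicate 2 stood apart in that count, and KO replicate 1 did not.

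The genes whose mean log2(CPM + 1) over the 13 classes was most like each member's were found among 16971 genes with at least 50 UMIs. For Slco1a4 they were Arhgef5 (r = 0.93), Rab11fip1 (0.91) and Lef1 (0.89), the last a transcription factor of the Wnt pathway. For Cldn5 they were Insr (0.93), Rflnb (0.91) and Igf1r (0.90). For Abcb1a they were Nes (0.94), Abcc6 (0.93) and Itm2a (0.92), and for Abcg2 Ets1 (0.90), Eng (0.88) and Prss23 (0.87). For Slc2a1 they were Prelid2 (0.92), Gm41030 (0.89) and Dipk2b (0.88). For Slc7a5 they were Slc35f2 (0.95), Cyyr1 (0.93) and Ushbp1 (0.93), and for Mfsd2a Car8 (0.95), S100a16 (0.95) and Cep76 (0.94). For Abcc4 they were Gm29107 (0.91), Txlnb (0.88) and Mecom (0.88), for Ocln Btg4 (0.89), Rab11fip1 (0.88) and Cmtm8 (0.88), and for Tjp1 Shroom1 (0.87), Plat (0.87) and 1700085D07Rik (0.84). Among the members themselves the most alike were Cldn5 and Slc7a5 (r = 0.90), and Tjp1 was least like the rest, with r of 0.06 to Abcc4 and -0.03 to Ocln. All values of r are over classes that share the same 4 libraries, and they are descriptions. Small classes weighed as much as large ones: ependymal had 1 and 4 nuclei in WT, and mural had 5 in KO replicate 1.

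The mitochondrial maximum bore heavily on these genes. Barcodes with 5% or more mitochondrial UMIs were 17.8% and 8.78% of the WT barcodes and 5.64% and 6.13% of the KO barcodes, and they held 16.9%, 5.64%, 3.62% and 5.66% of the UMIs in these and the kept nuclei together. The same barcodes held 86.6% and 72.7% of the Slco1a4 UMIs in WT and 58.2% and 64.3% in KO. For Cldn5 the shares were 72.0% and 56.0% in WT and 51.7% and 59.8% in KO, and for Mfsd2a 65.6%, 43.2%, 20.8% and 47.2% in the same order. Tjp1 had the smallest shares, 25.4%, 8.27%, 5.96% and 10.2%. WT replicate 1 had the largest share for all 10 members and KO replicate 1 the smallest. The summed endothelial markers showed the same, with 82.2%, 66.4%, 47.7% and 61.5% of their UMIs there. The filter thus removed more of the endothelial signal from WT replicate 1 than from any other library.

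**Figure D2:**
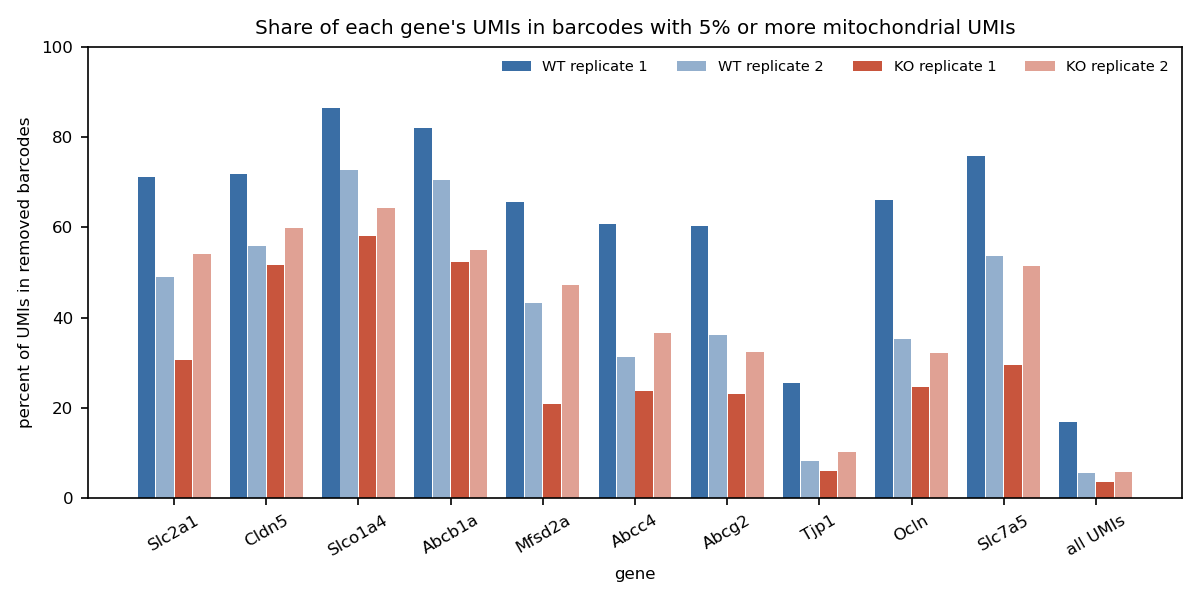
Bars give the percent of each gene's UMIs that lay in barcodes with 5% or more mitochondrial UMIs, per library, with all UMIs on the right. WT replicate 1 has the tallest bar for every gene, for example 86.6% for Slco1a4, and KO replicate 1 the shortest.

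For this reason the endothelial comparison was also run on barcodes clustered with no mitochondrial maximum, an alternative chosen after seeing the data. It gave 359 endothelial barcodes, 131 and 111 in WT and 36 and 81 in KO, of which 90, 66, 10 and 43 had 5% or more mitochondrial UMIs. Class totals were 787149, 483213, 125541 and 288878 UMIs. Summed mural markers were 2242, 2055, 247 and 1963 CPM, again lowest in KO replicate 1. Summed blood markers were 1007, 5335, 844 and 980 CPM, highest in WT replicate 2. Summed endothelial markers were 12961, 13712, 13804 and 15363 CPM, with both KO libraries above both WT libraries. The part of any of these in the values below was not tested.

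The KO libraries carried 2 floxed Ago2 alleles, with Cre active in VGLUT2 neurons. The comparison of the endothelial class asks whether that genotype is accompanied by other levels of barrier genes in the vessels. Among endothelial nuclei under the 5% maximum 0 of the 10 members passed, and 0 of 2572 genes did (0% called, edgeR quasi-likelihood test with Benjamini-Hochberg adjustment). At an unadjusted p under 0.05 the test had 116 genes, 4.51%, and 1 member, and DESeq2 called 1 gene and 0 members. The members' median log2 difference, KO minus WT, was 0.46, beside -0.03 over all genes tested, and 8 of 10 were positive, beside 47.5% of all genes. In 6 of 10 members both KO libraries lay above both WT libraries, beside 20.8% of all genes, and in 0 both lay below, beside 12.3%. With 2 libraries against 2, an exact permutation test of a single gene cannot give a two-sided p below 0.333.

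Slc2a1 had the largest difference of the 10. Its level was 139 and 182 CPM in WT and 392 and 506 CPM in KO, from 14, 43, 39 and 61 UMIs. Both KO libraries were above both WT libraries, by more than the spread within either group. The fitted fold was 2.55 (log2 1.35, SE 0.34, edgeR p 0.00826), the 21st smallest p of 2572, and the adjusted p was 0.928. Without a mitochondrial maximum the levels were 360 and 317 CPM in WT and 502 and 505 CPM in KO, which still did not overlap. The log2 difference there was 0.54 (SE 0.20, edgeR p 0.0214, adjusted p 0.527). The WT level was thus 160 ± 30.9 CPM under the maximum and 338 ± 30.3 without it, while the KO level was 449 ± 80.4 and 504 ± 2.53 CPM. The size of the Slc2a1 difference depends on which endothelial barcodes are counted. In the endothelial barcodes with 5% or more mitochondrial UMIs alone, Slc2a1 was at 403 and 319 CPM in WT and 368 and 507 in KO, and the groups overlapped.

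Slc7a5 and Mfsd2a, the other carriers, overlapped between the groups. Slc7a5 was at 534 and 449 CPM in WT and 422 and 796 in KO (log2 0.21, SE 0.39), with KO replicate 2 highest and KO replicate 1 lowest. Mfsd2a was at 168 and 161 CPM in WT and 20.1 and 216 in KO, from 17, 38, 2 and 26 UMIs (log2 -0.55, SE 0.78). KO replicate 1 alone was low, a library with 31 endothelial nuclei. Left out, the difference was 0.24, and with KO replicate 2 left out in its place it was -3.04. The latter passed the threshold, in a fit with 1 KO library, so KO replicate 1 decides that call. Without a maximum Mfsd2a was at 296 and 242 CPM in WT and 104 and 270 in KO (log2 -0.43, SE 0.31), again low in KO replicate 1 only.

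The tight junction members differed among themselves. Cldn5 was at 465 and 356 CPM in WT and 211 and 572 in KO (log2 -0.16, SE 0.48), so the WT libraries lay between the KO libraries. Without a maximum it was at 1288 and 979 CPM in WT and 709 and 980 in KO (log2 -0.44, SE 0.22, edgeR p 0.0719, adjusted p 0.659), with WT replicate 2 and KO replicate 2 level. Its level was much higher in that set: in the endothelial barcodes with 5% or more mitochondrial UMIs it was 1428, 1132, 1043 and 1126 CPM. Ocln was at 228 and 170 CPM in WT and 201 and 299 in KO (log2 0.26, SE 0.37), and at 293, 275, 263 and 287 CPM without a maximum (log2 -0.07, SE 0.21). The Ocln groups overlapped in both sets. Tjp1 was at 1356 and 1199 CPM in WT and 1901 and 1866 in KO (log2 0.47, SE 0.36, edgeR p 0.234), and at 1375, 1608, 2151 and 1997 CPM without a maximum (log2 0.44, SE 0.18, edgeR p 0.0342, adjusted p 0.564). Tjp1 was thus higher in both KO libraries in both sets, by a like amount, with neither past the adjusted threshold.

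The efflux pumps and Slco1a4 were all higher in both KO libraries. Abcc4 was at 297 and 331 CPM in WT and 513 and 655 in KO (log2 0.79, SE 0.32, edgeR p 0.0514), and at 292, 457, 669 and 547 CPM without a maximum (log2 0.66, SE 0.25, edgeR p 0.0199, adjusted p 0.518). Fitted folds for Abcc4 were thus 1.73 under the maximum and 1.58 without it, with neither past the adjusted threshold. Slco1a4 was at 1168 and 1030 CPM in WT and 1307 and 2306 in KO (log2 0.61, SE 0.40), where KO replicate 2 carried most of the difference. Without a maximum Slco1a4 was at 1629, 1689, 2039 and 2330 CPM (log2 0.37, SE 0.18, edgeR p 0.0665). Abcg2 was at 257 and 263 CPM in WT and 332 and 464 in KO (log2 0.51, SE 0.32), and at 315, 410, 518 and 450 CPM without a maximum (log2 0.38, SE 0.22). Abcb1a was at 416 and 356 CPM in WT and 483 and 639 in KO (log2 0.45, SE 0.32), and at 649, 656, 693 and 696 CPM without a maximum. The Abcb1a difference was thereby reduced to a log2 value of 0.06 (SE 0.19).

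**Figure D3:**
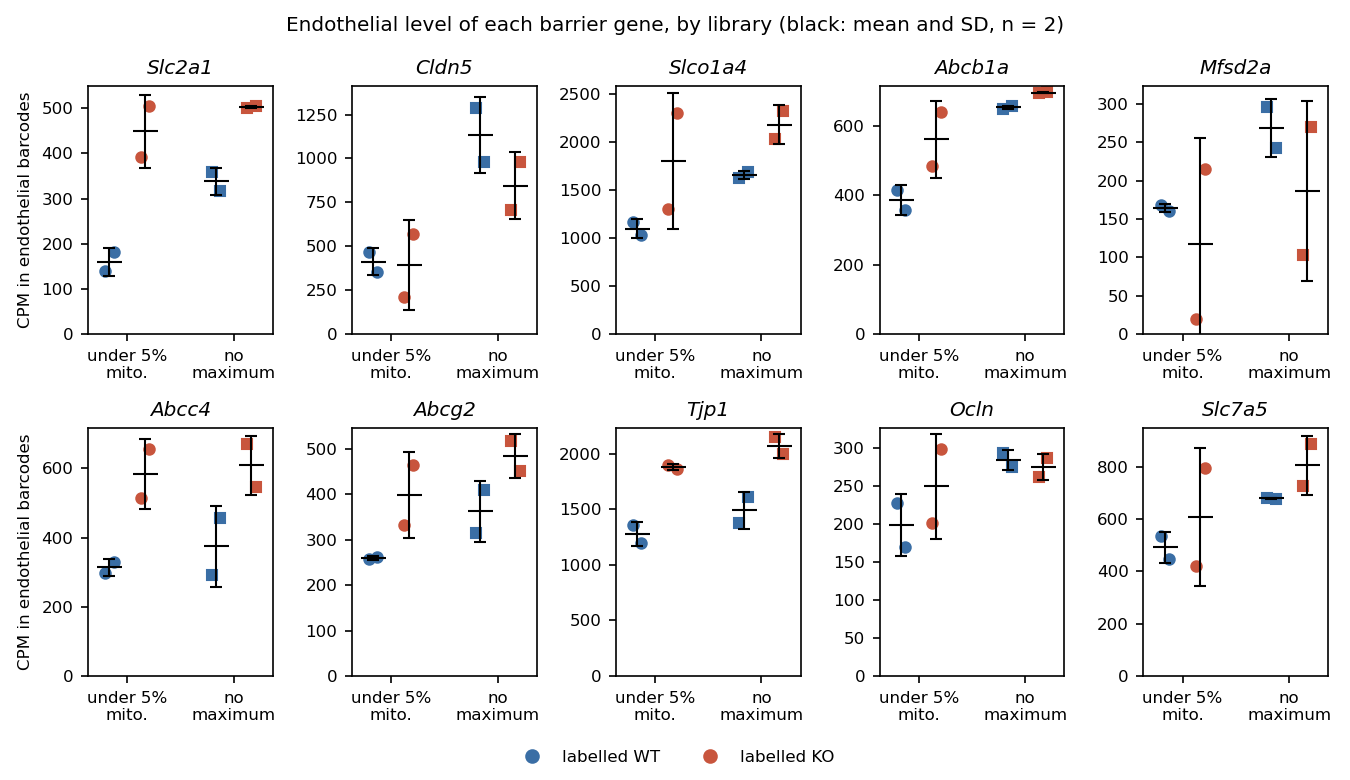
Points give the CPM of each barrier gene in the endothelial class of each library, for nuclei under 5% mitochondrial UMIs (circles) and with no maximum (squares); blue is labelled WT, red labelled KO, and black marks the mean and SD of 2 libraries (the bar of Mfsd2a in KO is clipped at 0). Slc2a1 in WT moves from 139 and 182 CPM to 360 and 317 CPM between the sets, and Mfsd2a is low in 1 KO library.

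Without a maximum 14 of 6375 genes passed (0.22% called) and 0 of the 10 members did, and DESeq2 called 17 genes and 0 members. At an unadjusted p under 0.05 were 3 members, Slc2a1, Abcc4 and Tjp1, and 7.97% of all genes. Both KO libraries lay above both WT libraries in 7 members, beside 21.8% of all genes, and below in 0, beside 17.9%. The members' median was 0.30, beside -0.00 for all genes tested. Of the 14 genes, 12 rose and Rgs6 and Fgf13 fell. They were Igfbp3, Cysltr1, Gm5127, Slco2a1, Hif3a, Lamc3, Cp, Lama3, Trpm3, Ccn2, Eln, Ccdc85a, Rgs6 and Fgf13, named after their values were seen. A further cluster of 103 barcodes there joined endothelial and mural markers and stayed unnamed.

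In all kept nuclei together 0 of 16975 genes passed by edgeR (0% called), 1003 (5.91%) were under 0.05 before adjustment, and 38 were called by DESeq2, none of them a member. In bulk sums like this one, fewer cells of a type and less RNA per cell cannot be told apart. The members' median was 0.02 and 5 of 10 were positive, beside 48.7% of all genes. Cldn5 was the 1 member with groups that did not overlap: 62.9 and 23.3 CPM in WT and 9.84 and 21.7 CPM in KO (log2 -1.43, SE 0.46, edgeR p 0.0139, adjusted p 0.640). Beside this, 14.5% of all genes were lower in both KO libraries and 18.7% higher in both. WT replicate 1 stood far above the others, and WT replicate 2 was nearly level with KO replicate 2. The difference was -0.63 without WT replicate 1, -0.96 without KO replicate 1 and -2.12 without KO replicate 2. Of the 4 omissions it passed the threshold only with the last, in a fit with 1 KO library. With no mitochondrial maximum the groups overlapped, at 186 and 49.0 CPM in WT and 19.7 and 50.8 CPM in KO. Mfsd2a was at 19 and 9.32 CPM in WT and 7.87 and 10.1 in KO (log2 -0.63, SE 0.32, edgeR p 0.0834). The other 8 members had log2 differences from -0.17 (Slc2a1) to 0.33 (Slco1a4) with standard errors of 0.11 to 0.41, and for each the groups overlapped. With no mitochondrial maximum the direction turned for Slco1a4 (-0.73), Slc7a5 (-0.59), Ocln (-0.47), Abcg2 (-0.37) and Abcc4 (-0.22).

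**Figure D4:**
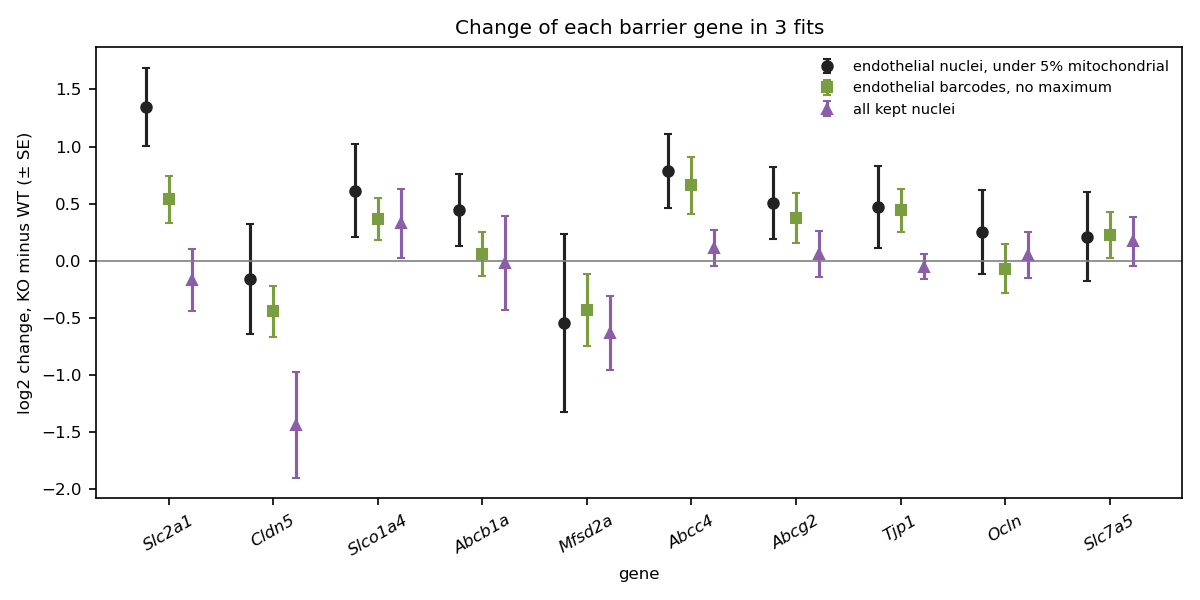
Points give the log2 difference, KO minus WT, and bars its SE from edgeR, for the 10 barrier genes in 3 fits: endothelial nuclei under 5% mitochondrial UMIs (circles), endothelial barcodes with no maximum (squares) and all kept nuclei (triangles). Slc2a1 is highest in the circles at 1.35, and Cldn5 lowest in the triangles at -1.43.

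In all nuclei outside the endothelial class Cldn5 was 58.9 and 20.3 CPM in WT and 7.85 and 15.1 CPM in KO, and of its 1579 UMIs in kept nuclei 221 were endothelial. In 6 of the 8 other classes with enough nuclei both KO libraries were below both WT libraries. It was at 49.2 ± 15.8 against 11.4 ± 10.3 CPM in astrocytes (log2 -2.10, SE 0.49, edgeR adjusted p 0.200), 33.8 ± 23.3 against 7.54 ± 0.933 in GABAergic neurons (-2.04, SE 0.52), 25.2 ± 19.8 against 4.51 ± 0.268 in glutamatergic neurons (-2.33, SE 0.63) and 52.3 ± 32.5 against 14.7 ± 14.3 in granule neurons (-1.79, SE 0.59). In OPC (-1.16, SE 0.57) and fibroblasts (-0.75, SE 0.73) the groups overlapped. Microglia (29 Cldn5 UMIs) and oligodendrocytes (36) were also among the 6 classes, with too few UMIs to be tested. Both KO libraries were lower for 1559 of 8987 genes in astrocytes, 1517 of 10254 in GABAergic neurons and 1450 of 10425 in glutamatergic neurons. The counts were 2006 of 10541 in granule neurons, 529 of 3445 in microglia and 747 of 5348 in oligodendrocytes. All 8 classes come from the same 4 libraries. The fitted Cldn5 estimates were all negative, at levels far below the endothelial one, and were not tested against each other. Beside this stands the removed material: barcodes over the mitochondrial maximum held 1675 and 766 Cldn5 UMIs in WT and 107 and 332 in KO, highest in WT replicate 1, and so were the other nuclei. The ratio of Cldn5 to Slco1a4 UMIs was 2.82 and 2.54 in WT and 0.718 and 1.38 in KO in all other kept nuclei, 0.398, 0.346, 0.162 and 0.248 in kept endothelial nuclei, and 0.807, 0.649, 0.535 and 0.503 in endothelial barcodes over the maximum. The part of RNA from broken cells in these values was not tested.

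Across the 8 classes with at least 20 nuclei in each library 46 member tests were made, 0 passed by edgeR, and 9 had an unadjusted p under 0.05. DESeq2 called 0 and had 5 under 0.05. The 9 edgeR results included Cldn5 in astrocytes, granule neurons, GABAergic neurons, glutamatergic neurons and OPC. Unadjusted edgeR p values under 0.05 belonged to 722 of 8987 genes in astrocytes, 692 of 10541 in granule neurons and 378 of 6560 in fibroblasts. The counts were 454 of 10254 in GABAergic neurons, 568 of 10425 in glutamatergic neurons and 195 of 3445 in microglia. In oligodendrocytes they were 284 of 5348 and in OPC 415 of 6173. Of all genes 0.122% were called in astrocytes, 0.00959% in glutamatergic neurons, 0.112% in oligodendrocytes and 0.551% in OPC, and 0% in granule neurons, GABAergic neurons, fibroblasts and microglia. Outside Cldn5, the members with the smallest p were Abcc4 in fibroblasts, at 54.8 ± 0.412 CPM in WT and 107 ± 1.47 in KO (log2 0.99, SE 0.30, edgeR p 0.00685, adjusted p 0.671), and Tjp1 in astrocytes, at 728 ± 9.87 and 553 ± 52.0 CPM (log2 -0.41, SE 0.14, edgeR p 0.0130, adjusted p 0.427). Slc2a1 in granule neurons was at 14.4 ± 4.92 and 5.31 ± 3.49 CPM (log2 -1.38, SE 0.50, adjusted p 0.635). Mfsd2a in OPC, its second site, was at 54.8 ± 15.6 and 57.2 ± 5.49 CPM (log2 0.14, SE 0.33), and Ocln in granule neurons at 35.8 ± 2.59 and 40.2 ± 1.22 CPM (log2 0.17, SE 0.20). By cluster, Abcc4 in the smaller fibroblast cluster was at 129 and 134 CPM in WT and 471 and 248 in KO from 12, 11, 19 and 32 UMIs. The larger cluster had 32.2 and 36.8 CPM in WT and 43.9 and 26.2 in KO. The smaller cluster made up 20.2% and 17.7% of WT fibroblasts and 14.5% and 33% of KO fibroblasts, and the part of that share in the class value was not tested. Both KO libraries were below both WT libraries in at least 1 of the 8 classes for 9 of the 10 members, beside 66.6% of the 2572 genes tested in endothelial nuclei. In 5 members this stood beside KO libraries that were both higher in endothelial nuclei, as in 13.4% of those genes. For Abcc4 the lower class, glutamatergic neurons, was nearly tied (18.02 CPM in WT replicate 2, 18.01 in KO replicate 1).

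The difference between the endothelial effect and that in all other nuclei was tested in edgeR as an interaction term with libraries as blocks, an alternative chosen after seeing the data. It called 0 of 2572 genes by edgeR (0% called), and no member passed. Slc2a1 had the largest value among the members, 1.94 (SE 0.52, unadjusted p 0.00861, adjusted p 0.999), followed by Cldn5 at 1.43 (SE 0.49, unadjusted p 0.0230) and Abcc4 at 0.93 (SE 0.33, unadjusted p 0.0270). Without KO replicate 1 the test called 100 of 3422 genes, and the smallest adjusted p of a member was 0.0885, for Cldn5 (edgeR); without KO replicate 2 it called 1 gene. A difference between endothelial and other nuclei was thus not shown for any barrier gene after adjustment.

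Other genes of the barrier were read from 5 lists. Among all genes tested in the endothelial class, 47.5% were positive under the maximum and 49.6% without it. The list of tight junction partners had 11 of 14 genes tested in endothelial nuclei, 0 rose and 0 fell, and 9 were positive with a median of 0.10. F11r, the junctional adhesion molecule A, was at 49.5 and 38.1 CPM in WT and 100.6 and 99.5 in KO (log2 1.12, SE 0.49, edgeR p 0.0665). Pard3, a polarity scaffold, had 0.53 (SE 0.31), Afdn 0.30 (SE 0.38) and Cgnl1 -0.61 (SE 0.44). Without a maximum Pard3 was at 295 and 333 CPM in WT and 677 and 523 in KO (log2 0.88, SE 0.22, edgeR adjusted p 0.180). F11r was there at 69.9 and 95.2 CPM in WT and 183 and 79.6 in KO, so its groups overlapped (log2 0.49, SE 0.37). Of 24 other transporters and receptors 17 were tested, 0 rose and 0 fell, 12 were positive, and the median was 0.24. Without a maximum 10 of 21 were positive and the median was -0.03. The smallest p values belonged to Slc16a1, a monocarboxylate carrier (-0.41, SE 0.34), Slc7a1, a carrier of cationic amino acids (0.59, SE 0.51), Abcc6 (0.45, SE 0.41) and the insulin receptor Insr (0.40, SE 0.36). Slc16a1 had -0.61 (SE 0.20, edgeR p 0.0105, adjusted p 0.442) without a maximum and was lower in both KO libraries.

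Of 23 Wnt and transcriptional regulators 13 were tested in endothelial nuclei, 0 rose and 0 fell, and 4 were positive with a median of -0.22. Ets1 had -0.49 (SE 0.33), Ctnnb1, which encodes beta-catenin, -0.38 (SE 0.43), Fzd6 -0.44 (SE 0.57) and Tcf7l2 -0.41 (SE 0.69). Only KO replicate 1 was low for Fzd6 (198 and 208 CPM in WT, 70.4 and 249 in KO). The same held for Tcf7l2 (168 and 182 CPM in WT, 40.2 and 241 in KO). Ctnnb1 groups also overlapped (178 and 131 CPM in WT, 80.4 and 166 in KO). Ets1 was lower in both KO libraries (614 and 687 CPM in WT, 432 and 564 in KO). Without a maximum 22 were tested and the median was -0.06. Tcf7l1, a repressor of Wnt targets, was there at 108 and 130 CPM in WT and 247 and 246 in KO (log2 1.03, SE 0.24, edgeR adjusted p 0.160). Of 10 vesicle and leak genes none had enough counts under the maximum. Without it 9 were tested, 0 rose and 0 fell, and Vcam1, an adhesion molecule for leukocytes, was at 5.08 and 10.3 CPM in WT and 104 and 51.9 in KO (log2 3.21, SE 0.59, edgeR adjusted p 0.0608).

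The list of arterial, capillary and venous genes had 7 of 17 tested, 0 rose and 0 fell, and 6 were positive with a median of 0.76, beside -0.03 over all genes. Il1r1, a cytokine receptor of brain endothelium, was at 89.1 and 97.5 CPM in WT and 543 and 274 in KO (log2 2.01, SE 0.49, edgeR adjusted p 0.928). Vegfc, a growth factor for vessels, was at 39.6 and 4.24 CPM in WT and 121 and 232 in KO (log2 3.30, SE 0.82), and Bmx, a kinase of arterial endothelium, at 19.8 and 0 CPM in WT and 111 and 91.2 in KO (log2 3.72, SE 1.08, a fit against 2 UMIs in WT). These 3 had unadjusted p values under 0.05 and Vwf did not (0.76, SE 0.72). Without a maximum the same 4 genes had 3.17 (Bmx), 2.14 (Il1r1), 1.23 (Vwf) and 0.91 (Vegfc), with edgeR adjusted p values of 0.117, 0.174, 0.0608 and 0.406. In all kept nuclei the lists had 0 calls by edgeR as well, and the genes with the smallest p were Bmx (1.84, SE 0.48), Car4 (-0.87, SE 0.27), Aplnr (-1.48, SE 0.52), Ets1 (-0.68, SE 0.24), Slc16a1 (-0.87, SE 0.31) and Esam (-0.96, SE 0.37).

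The endothelial class made up 1.36% and 0.962% of kept WT nuclei and 0.963% and 1.36% of kept KO nuclei, so the groups coincided (log2 0.04, SE 0.31, p 0.913 by edgeR on the number of nuclei in each class). Without a maximum the shares were 3.33% and 1.74% in WT and 1.05% and 2.40% in KO, which also overlapped (log2 -0.54, SE 0.35, p 0.139 by the same edgeR test).

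The plot of settings shows how far 3 of the endothelial differences depend on these choices. Slc2a1 was positive in every setting plotted, from 0.35 with a maximum of 10% to 1.75 with a maximum of 2% within the class. It passed the threshold only without KO replicate 1 (log2 1.45), a fit that leaves 1 KO library, so its spread comes from the WT libraries alone. Cldn5 and Mfsd2a were negative in every setting plotted except without KO replicate 1.

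**Figure D5:**
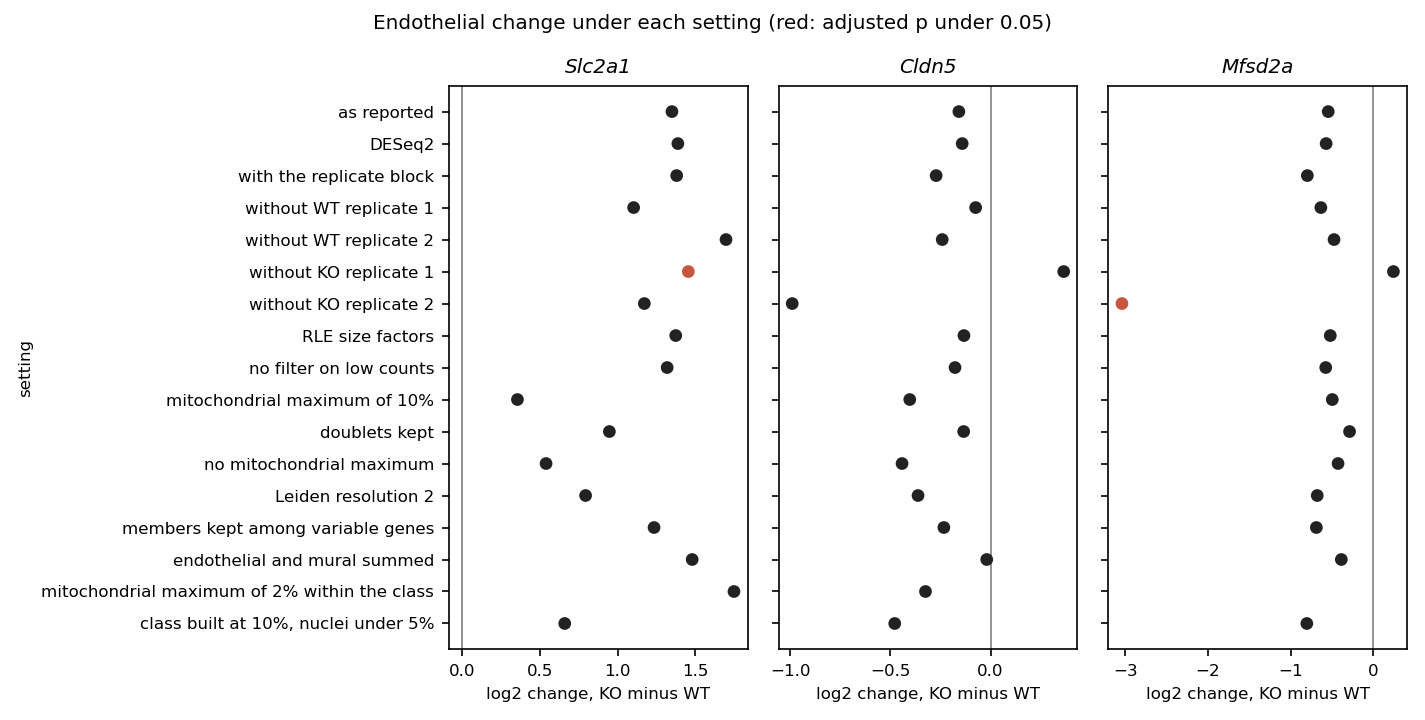
Each point is the log2 difference, KO minus WT, of Slc2a1, Cldn5 or Mfsd2a in the endothelial class under the setting named on the vertical axis, and red points have an adjusted p under 0.05. Slc2a1 runs from 0.35 to 1.75, and leaving out 1 KO library or the other puts Mfsd2a at -3.04 or 0.24.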

How the data were processed

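Single-nucleus RNA was captured with 10x Genomics 3′ v3 chemistry, per the labels. The authors deposited integer UMI counts per gene and barcode, made with Cell Ranger 4.0.0 on GRCm38, with Seurat 3.2.3 also named, per the submitters' processing notes; the intron setting and annotation release are not given in the sources used here. The members and lists were chosen with earlier results of these data known.

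A barcode was kept if it had 500 or more UMIs and a mitochondrial share below 5%. Because Scrublet's own threshold found almost no doublets, the top scores were removed, at 0.8% for each 1000 barcodes. With scanpy 1.11.5, each nucleus was scaled to 10000 UMIs, and 2000 variable genes without the members, 30 components, 15 neighbours and Leiden clustering (igraph 0.11.9, resolution 1) gave 30 clusters. Clusters were named from marker lists (at least 3 detected, each in 10% of nuclei and 2-fold over the rest, mean log2 fold of at least 0.5), so every class is endothelial-like, astrocyte-like and so on.

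Counts were summed per library and class of at least 20 nuclei and tested with the quasi-likelihood test of edgeR 4.0.16 (filterByExpr, TMM, R 4.3.3), checked on simulated data; DESeq2 1.42.0 was an alternative. The threshold was an adjusted p of 0.05. Values are CPM. Named genes are all members, the list genes past the threshold or up to 4 with the smallest p, and the 3 genes most like each member. Gene positions are from GENCODE M21. Alternatives were another tool, RLE scaling, no filter on low counts, each library left out, a replicate block, other mitochondrial maxima, doublets kept, Leiden resolution 2, members kept for clustering, and endothelial with mural sums.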

Additional observations from a re-analysis of the deposited data

Results flagged for a closer look

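In 5 members both KO libraries were above both WT libraries in endothelial nuclei, while in at least 1 other class both KO libraries were below both WT libraries. Of all 2572 genes tested in endothelial nuclei, 13.4% met both conditions and 66.6% met the second, with or without the first. The endothelial difference minus that in all other nuclei was 1.94 for Slc2a1 (SE 0.52, KO lower in 4 of 8 other classes), 0.93 for Abcc4 (SE 0.33, lower in 1 and higher in 1), 0.88 for Slco1a4 (SE 0.55, lower in 1), 0.61 for Abcg2 (SE 0.36, lower in 6) and 0.60 for Tjp1 (SE 0.37, lower in 4 and higher in 2). Each had an adjusted p of 0.999 by edgeR, and the difference from each single class was not tested. Several of these classes had few UMIs of the gene, such as microglia with 10 of Slc2a1 and 14 of Slco1a4. For Abcc4 the lower class was glutamatergic neurons, at 19.89 and 18.02 CPM in WT and 18.01 and 14.78 in KO. WT replicate 2 and KO replicate 1 were thus nearly level there.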

How the results depend on the processing

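The number of genes called in endothelial nuclei, 0 by edgeR, was 1 with DESeq2, 24 with no filter on low counts, 3 with a mitochondrial maximum of 10%, 14 with no maximum, and 0 to 202 with each library left out in turn. In all nuclei it was 38 with DESeq2, 4 with no filter and 0 to 364 with each library left out. In endothelial barcodes without a maximum the count of 14 became 81 with no filter and 15 to 39 with each library left out. Of the members in other classes, 0 to 4 were called with each library left out, all of them Cldn5 except Slc2a1 in granule neurons without KO replicate 2 (-2.21, edgeR adjusted p 0.0396). The log2 difference in the endothelial share was -0.23 to 0.27 with each library left out, -0.15 with a maximum of 10%, -0.046 at Leiden resolution 2 and -0.54 with no maximum. Each fit with a library left out had 1 library in that group, so its calls rest on the spread of the other group. The cause was not tested for any of these changes.

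In endothelial nuclei the sign turned without KO replicate 1 for Cldn5 (0.36) and Mfsd2a (0.24), and without KO replicate 2 for Ocln (-0.0049) and Slc7a5 (-0.26); with each library left out in turn the ranges were -0.99 to 0.36, -3.04 to 0.24, -0.0049 to 0.48 and -0.26 to 0.57. With a maximum of 10% it turned for Ocln (-0.22) and Slc7a5 (-0.0011), and with none for Ocln (-0.070). Without a maximum and with no filter, Abcb1a was at -0.015. In all nuclei, leaving out each library gave -0.53 to 0.25 for Slc2a1, -0.057 to 0.77 for Slco1a4, -0.58 to 0.61 for Abcb1a, -0.15 to 0.25 for Abcg2, -0.13 to 0.22 for Ocln and -0.074 to 0.43 for Slc7a5. With a maximum of 10% Slco1a4 was at -0.28, Abcg2 at -0.14, Ocln at -0.19 and Slc7a5 at -0.24, and with none at -0.73, -0.37, -0.47 and -0.59, with Abcc4 at -0.22. Under the alternatives, 150 member values in endothelial nuclei, 89 in all nuclei and 79 without a maximum kept their direction and their side of the threshold, and the 3 calls gained are in the report. Mfsd2a had too few counts to be tested at a maximum of 2%.

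The groups share replicate numbers, which nothing in the labels ties to an animal, litter or day, and the deviations of same-numbered libraries had a correlation of -0.15 in endothelial nuclei and -0.08 in all nuclei. With the replicate block the calls were 0 in endothelial nuclei, 0 in all nuclei, 45 without a maximum and 1 among members in other classes, Cldn5 in glutamatergic neurons (-2.36, edgeR adjusted p 0.0441), and Abcb1a in all nuclei was at 0.0094. Depth limits Mfsd2a most, with 2 UMIs in the endothelial nuclei of KO replicate 1.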
